A study of Mus musculus with 4 samples.

Results

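Microglia, the resident macrophages of the brain, were examined in the medial ganglionic eminence (MGE), the embryonic ventral forebrain zone that gives rise to cortical interneurons and globus pallidus neurons. The members were chosen from droplet single-cell RNA counts by a fixed rule. A barcode had to hold at least 2000 unique molecular identifiers (UMIs, counted RNA molecules), with at most 10% of them from mitochondrial genes. It also had to hold at least 5 UMIs in all of C1qa, C1qb, Cx3cr1, Csf1r and Aif1, with at least 3 of these 5 genes detected. In total, 93 of the 21232 barcodes that passed the UMI and mitochondrial limits met the rule, 0.438% of them, and together they held 815034 UMIs. Null replicates 1 and 2 held 25 and 15 of them, and WT replicates 1 and 2 held 21 and 32.

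The series held 4 libraries of microdissected MGE of e14.5 mouse embryos, 2 from St18(-/-) embryos (null) and 2 from wildtype littermates (WT). All came from a C57/BL6 ICR mix strain. St18 is a zinc finger transcription factor of neural progenitors and immature neurons. The null allele is a germline recombination of a conditional allele, which takes out internal exons, shifts the reading frame and is carried by every cell of the embryo, microglia included. Embryos of a genotype were pooled before dissociation, and how many entered each pool is not given in the sources used here, so differences between libraries of a genotype may be technical as well as biological. Genotypes are those of the labels, and the replicate numbers only name the libraries and pair none of them.

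Microglia do not arise in the MGE. They descend from erythromyeloid progenitors of the yolk sac, enter the brain early in development and depend on signalling through the receptor Csf1r. In the embryonic brain they clear dying cells and debris, and they are known for expressing the complement C1q chains, the fractalkine receptor Cx3cr1 and purinergic receptors such as P2ry12. The St18 transcript itself was nearly absent from them, with 2, 1, 0 and 2 UMIs in the order of the libraries above.

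Both label checks were limited. St18 in the other barcodes was at 19.5 and 58.5 counts per 1000000 UMIs (CPM) in the libraries labelled null replicates 1 and 2, against 36.2 and 47.4 CPM in WT replicates 1 and 2, so that null replicate 2 was the highest of the 4. Since the allele lacks internal exons only, tags from the rest of the transcript can still be counted, and St18 could not check the genotype labels. Xist, the RNA of the inactive X chromosome in females, was at 607 and 1404 CPM in the other barcodes of the null libraries and at 0.264 and 0.0677 CPM in those of WT. Genotype therefore cannot be told apart from embryo sex in any comparison below. Total depth was 70991150 to 92984713 UMIs per library. No 2 libraries shared a microglia barcode, 49 barcodes passing the limits recurred over the 6 pairs of libraries, and 2 microglia barcodes were also among the passing barcodes of another library.

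Promoter sequences of the genes that separated microglia best were read first, because these genes were high together in the same barcodes. The 25 genes with the largest ratio of microglia to other barcodes, which the rule on those barcodes in part fixes, were searched for the letters GAGGAAGT, a core bound by the myeloid factor PU.1 (gene Spi1), and for the shorter GGAAGT inside it, which many ETS factors can bind. Both strands were read in windows of 250 bases before to 50 bases after each start (RefSeq, GRCm38.p6), and 16 of the 25 genes had a window. The long form was in 4 of these 16, namely C1qc, Ctss, Cd53 and Cyth4, against 3.69% of the 27025 genes with a window. The short form was in 10 of the 16, against 26.5% of all genes. The 250 bases before the start are shown for 4 of the 10 genes with the short form. These 4 are on the minus strand, and matches to either motif are in capitals.
C1qb: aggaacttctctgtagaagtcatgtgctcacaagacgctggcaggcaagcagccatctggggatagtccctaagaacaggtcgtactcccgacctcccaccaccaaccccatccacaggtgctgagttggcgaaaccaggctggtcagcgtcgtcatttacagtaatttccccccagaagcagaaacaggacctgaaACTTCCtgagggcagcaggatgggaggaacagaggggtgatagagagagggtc
C1qc: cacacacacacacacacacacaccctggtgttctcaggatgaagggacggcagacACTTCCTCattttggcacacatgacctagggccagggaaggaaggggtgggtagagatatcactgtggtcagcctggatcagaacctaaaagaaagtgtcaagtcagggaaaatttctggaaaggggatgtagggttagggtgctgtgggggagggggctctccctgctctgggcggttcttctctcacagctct
Fcrls: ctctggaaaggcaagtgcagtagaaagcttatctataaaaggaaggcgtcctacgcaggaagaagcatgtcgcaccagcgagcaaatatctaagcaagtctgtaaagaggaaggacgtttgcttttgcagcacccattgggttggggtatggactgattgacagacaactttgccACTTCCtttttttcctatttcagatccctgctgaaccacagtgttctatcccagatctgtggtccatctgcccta
P2ry12: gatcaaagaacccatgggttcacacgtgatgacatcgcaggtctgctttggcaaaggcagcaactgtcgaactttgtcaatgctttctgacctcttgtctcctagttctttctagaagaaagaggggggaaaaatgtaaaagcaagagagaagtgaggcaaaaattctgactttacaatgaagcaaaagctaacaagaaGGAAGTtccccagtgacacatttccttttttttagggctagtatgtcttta
These windows lie at chr4:136886201-136886450 for C1qb, chr4:136892915-136893164 for C1qc, chr3:87263525-87263774 for Fcrls and chr3:59262986-59263235 for P2ry12. The long form stood only in the C1qc window, beginning 195 bases before the RefSeq start, where it reads ACTTCCTC on the strand shown. The short form began 53 bases before the RefSeq start in C1qb, 75 in Fcrls and 51 in P2ry12. GENCODE M21 places the starts of Fcrls and C1qc further upstream, at 87263738 and 136893065, so that much of both windows and the Fcrls match lie inside the gene by that annotation. It places those of C1qb and P2ry12 further downstream, at 136886187 and 59262871, so the matches of these genes lie further from that start. A match of letters is no evidence that a factor binds there. Spi1 itself was at 381, 198, 376 and 336 CPM in the microglia of null replicates 1 and 2 and WT replicates 1 and 2, and at 0 to 0.235 CPM in the other barcodes.

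The 5 genes of the rule had levels that the rule raised by construction, so they are given without a test. C1qb, a chain of the complement recognition molecule, was detected in all 93 barcodes and stood at 3557 and 2855 CPM (null) against 3683 and 3626 CPM (WT). C1qa, its partner chain, was at 2568, 2136, 2461 and 2967 CPM in the same order and was seen in 90 barcodes. The receptor genes were detected less widely, Cx3cr1 in 76 and Csf1r in 72 of the 93. Cx3cr1, the receptor for a ligand that neurons carry, stood at 1366 and 1537 CPM (null) against 1826 and 1327 CPM (WT). Csf1r, the receptor on which microglial survival rests, stood at 1062 and 1081 CPM (null) against 1262 and 867 CPM (WT). Aif1, which encodes the actin-binding protein Iba1, stood at 994 and 808 CPM (null) against 1223 and 1127 CPM (WT). In the other barcodes each of the 5 was at or below 0.634 CPM in every library. C1qa, C1qc and C1qb form a cluster on the minus strand of chromosome 4 that spans 18675 bases (GRCm38, 136880129 to 136898803). C1qc, which the rule did not use, was at 2468, 2092, 2547 and 2507 CPM in the microglia.

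Most members lay well inside the limits. The median barcode held 58 UMIs of the 5 genes, and 11 of the 93 held only 5 to 9. Just outside the rule stood 12 barcodes with 3 or 4 such UMIs and 3 with at least 5 UMIs from fewer than 3 genes. Of the other 21139 passing barcodes, 20921 (99.0%) had none. Median depth differed between libraries, at 8141 and 10079 UMIs per microglia in null and 3562 and 6345.5 in WT.

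**Figure D1:**
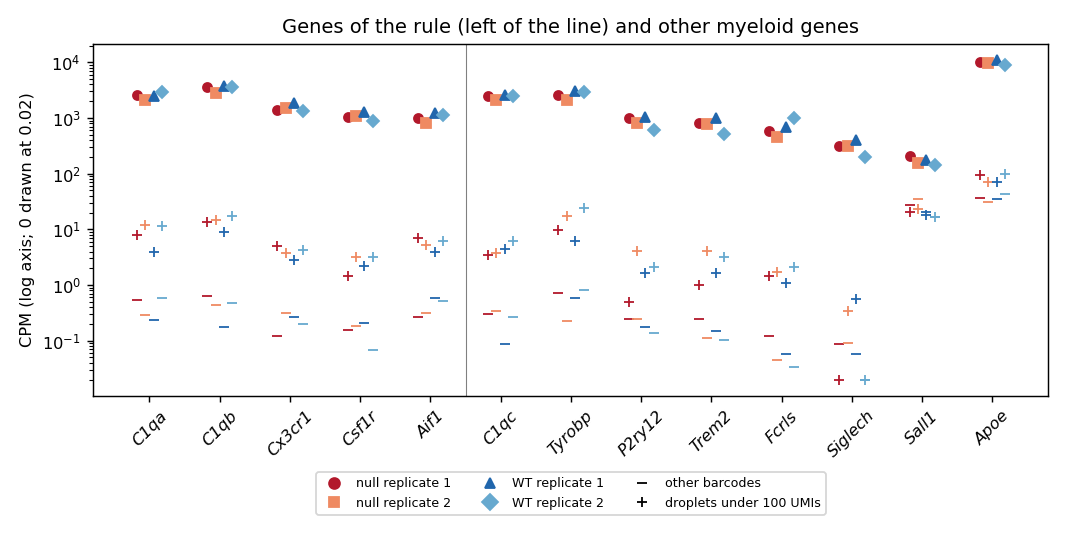
CPM (log axis) of the 5 genes of the rule, left of the line, and of 8 further myeloid genes, in summed microglia (filled symbols, 1 per library), in the other passing barcodes (dashes) and in droplets under 100 UMIs (crosses). The microglia lie far above the other barcodes for every gene but Sall1, which is also found in the other barcodes at 16.8 to 35.1 CPM.

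The genes that mark parenchymal microglia were present as a set. All 14 genes of a microglia core list were higher in the microglia than in the other barcodes of all 4 libraries, and 13 of the 14 reached 100 CPM. Fcrls, an Fc receptor-like scavenger gene, stood at 594 and 456 CPM (null) against 682 and 1003 CPM (WT). P2ry12, the ADP receptor that guides microglial processes, was at 989, 803, 1027 and 611 CPM. Tmem119, a membrane protein used to tell microglia from blood-derived macrophages, was lower at 141, 159, 86.2 and 82.9 CPM and was seen in 40 of 93 barcodes. Sall1, the transcription factor that maintains microglial identity, was at 209, 154, 172 and 143 CPM and was also present in the other barcodes. The median of the core genes' ratios to the other barcodes was 2352. Over all 8070 genes at 10 CPM or more in the microglia, 2012 were higher in all 4 libraries, 3117 were lower in all 4, and the median ratio was 0.854.

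Markers of the other macrophages of the developing brain were largely missing. Of 9 genes of border macrophages, which lie in the meninges and around vessels, Lyve1, Cd163, Pf4 and F13a1 had 0 UMIs in all 93 barcodes, and Ms4a7 and Cbr2 had 1 each. With 815034 UMIs read, 0 UMIs allows up to 3.68 CPM. The remaining 3 were detected. Stab1, a scavenger receptor, was at 59.0, 89.2, 110 and 113 CPM, Dab2, an endocytic adaptor, at 40.8, 59.5, 47.0 and 79.2 CPM, and Mrc1, the mannose receptor, at 22.7, 29.7, 70.5 and 33.9 CPM. The 9 genes summed to 127 to 230 CPM over the 4 libraries. After thinning each barcode to 2000 UMIs, 0 of 25 and 0 of 15 null microglia held 2 or more UMIs of this list, against 3 of 21 and 4 of 32 in WT (two-sided exact permutation p = 0.333, the smallest that 2 libraries against 2 can give). A count of 0 of 25 leaves an exact 95% interval up to 13.7% and 0 of 15 one up to 21.8%. The thinned counts rest on a single random draw, and these intervals do not cover the spread between draws. Without thinning the shares were 28.0% and 40.0% in null and 28.6% and 43.8% in WT, so the groups then overlapped. Monocyte and lymphoid lists of 6 genes each summed to 4 and 2 UMIs over all microglia.

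Transcripts of neurons and red cells were used to gauge free RNA. The 8 erythroid genes summed to 49.6 to 157 CPM in the microglia, 0.688 to 2.18% of their level in droplets under 100 UMIs. The neuron list stood higher, at 10.3 to 20.7% of its level in droplets, and the progenitor list at 10.1 to 50.7%. The source of this difference was not tested. The median microglia held 0.823 and 0.934 UMIs of neuron and progenitor genes per 1000 UMIs in null and 0.473 and 0.792 in WT, against 5.90 to 6.63 per 1000 in the median of the other barcodes. These UMIs were unevenly spread, and 3 barcodes held 60.8% and 72.0% of them in the null libraries and 39.1% and 44.4% in WT. In all, 10 of the 93 microglia held 10 or more UMIs of 7 neuron genes, 3 and 4 in null and 1 and 2 in WT. Of these, 5 held fewer than 30 UMIs of the rule genes. A further barcode, in null replicate 2, held 92 UMIs of progenitor genes and 3 of neuron genes, against 19 of the rule genes.

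The largest barcode stood apart. It belonged to null replicate 2, held 49955 UMIs (24.8% of that library's microglia UMIs) with 261 UMIs of the rule genes, and carried all 163 UMIs of 5 mural genes and 107 of the 114 UMIs of 6 endothelial genes found in that library's microglia. Of its mural UMIs, 107 came from Rgs5, a pericyte gene. No other microglia of the 93 held more than 2 mural UMIs. No doublet caller was run, and the test of genotypes across genes was also run without this barcode.

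Complement and phagocytosis genes made up the next group. Beside C1q, the receptor gene C3ar1 was at 145, 109, 62.7 and 185 CPM, whereas C3 and C4b had 0 UMIs. Itgam, which encodes a subunit of complement receptor 3, was at 222, 208, 337 and 170 CPM. Of 16 phagocytic receptor genes, 14 were higher than in the other barcodes in all 4 libraries. Tyrobp, the signalling adaptor of Trem2, stood at 2618 and 2146 CPM (null) against 2994 and 2880 CPM (WT). Trem2, a receptor for lipids and debris, was at 821, 768, 1011 and 509 CPM. The Fc receptor chain Fcer1g was at 1692, 1071, 1756 and 1610 CPM. Cd36 had 0 UMIs and Msr1 had 1, while Mertk, a receptor for apoptotic cells, was at 72.6, 129, 125 and 49.0 CPM.

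Lysosomal genes were high to differing degrees, with ratios to the other barcodes from 4.14 (Npc2) to 6882 (Lyz2). All 18 were above the other barcodes in the 4 libraries and all 18 reached 100 CPM in the mean of the libraries, summing to 18107 to 19858 CPM against 613 to 722 CPM in the other barcodes. Ctsd, an aspartic protease, was at 2622, 2513, 2814 and 2775 CPM, and Ctsb, a cysteine protease, at 2169, 2493, 2586 and 2612 CPM. Ctss, a cathepsin of myeloid cells, was at 1624, 1249, 1340 and 995 CPM and at 0.0587 to 0.282 CPM elsewhere. Lyz2, a lysozyme gene, was at 567, 451, 611 and 788 CPM.

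Among 12 genes of lipid handling and growth support, Apoe, the lipid carrier, was detected in all 93 barcodes at 10235 and 9557 CPM (null) against 11011 and 8776 CPM (WT), against 30.6 to 43.4 CPM in the other barcodes. Abca1, a cholesterol exporter, was at 340, 575, 697 and 339 CPM. Fabp5, a fatty acid binding protein gene, was at 354, 927, 752 and 1764 CPM and did not separate from the other barcodes, which were at 762 to 1086 CPM. Spp1, which encodes osteopontin, varied widely between the libraries. It stood at 4.54 and 996 CPM (null) against 141 and 728 CPM (WT), from 1, 201, 18 and 193 UMIs. In null replicate 2, 199 of the 201 UMIs came from 1 barcode, and in WT replicate 2 there were 117 and 58 in 2 barcodes. Only 14 of the 93 microglia held any Spp1 UMI and 8 held 3 or more, 0 and 1 in null and 3 and 4 in WT. The 3 barcodes with at least 58 Spp1 UMIs also held 82, 157 and 95 UMIs of Fabp5 and 22, 24 and 21 of Cd9, a tetraspanin gene. Of these 3, the 2 in WT held 5 and 4 UMIs of Gpnmb, a glycoprotein of lipid-laden phagocytes, and it was seen in no other microglia. A difference between libraries in Spp1 thus rested on single barcodes.

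Chemokine and interferon genes were sparse. Of 14 chemokine and cytokine genes 3 reached 100 CPM in the mean of the libraries, and 9 were higher than in the other barcodes of all 4. Ccl3, a chemokine, was at 113, 59.5, 39.2 and 192 CPM, and was found in 20 barcodes. Ccl4, a related chemokine, was found in 8, with 61 of the 72 UMIs of WT replicate 2 in 1 of them. Tgfb1, which encodes a growth factor on which microglia depend, was at 231, 243, 180 and 170 CPM. The inflammatory cytokine genes Tnf and Il1b had 4 and 9 UMIs over all microglia and Cxcl10 had 0. Il1a, another inflammatory cytokine gene, had 37 UMIs in 22 barcodes and was at 31.8, 49.6, 23.5 and 64.1 CPM. Of 14 interferon and antigen presentation genes, only B2m, the light chain of MHC class I, reached 100 CPM, at 998, 803, 925 and 735 CPM. Irf7, Ifit3 and H2-Aa had 0 UMIs. Among 12 early response genes, which dissociation can induce, 4 were higher than in the other barcodes of all 4 libraries and 4 in none. The higher were Junb, Atf3, Zfp36 and Ier2, at means of 71.1, 43.5, 46.7 and 30.7 CPM. Jun was at 191, 19.8, 86.2 and 181 CPM and Btg2 at 163, 59.5, 7.84 and 222 CPM. Fos had 2 UMIs, and Fosb, Hspa1a and Hspa1b had 0. Single barcodes weighed heavily here too. The barcode with 61 Ccl4 UMIs held 114 of the list's 398 UMIs, and 1 with 21 Ccl4 UMIs held 64.

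Ligands and receptors between microglia and their surroundings were compared by level. Of 9 receptor genes, Csf1r and Cx3cr1 belong to the rule, and 5 of the other 7 were higher in the microglia of all 4 libraries. Sirpa, the receptor for the signal Cd47, was at 290, 332, 392 and 290 CPM in microglia and 3.76 to 5.74 CPM elsewhere, while Cd47 was at 76.4 to 82.8 CPM in the other barcodes. The ligands of Csf1r were low in the other barcodes, with Il34 at 0.0293 to 0.169 CPM and Csf1 at 1.29 to 2.24 CPM, and Csf1 was at 22.7, 79.3, 62.7 and 75.4 CPM in the microglia themselves. Cx3cl1, the ligand of Cx3cr1, was at 1.73 to 2.57 CPM in the other barcodes and had 0 UMIs in the microglia. Tgfbr1, a receptor for Tgfb1, was at 354, 372, 212 and 351 CPM in the microglia and at 47.2 to 61.4 CPM elsewhere. Gas6, the bridging ligand of Mertk and Axl, was at 81.7, 173, 149 and 143 CPM in the microglia and 2.14 to 2.37 CPM elsewhere.

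**Figure D2:**
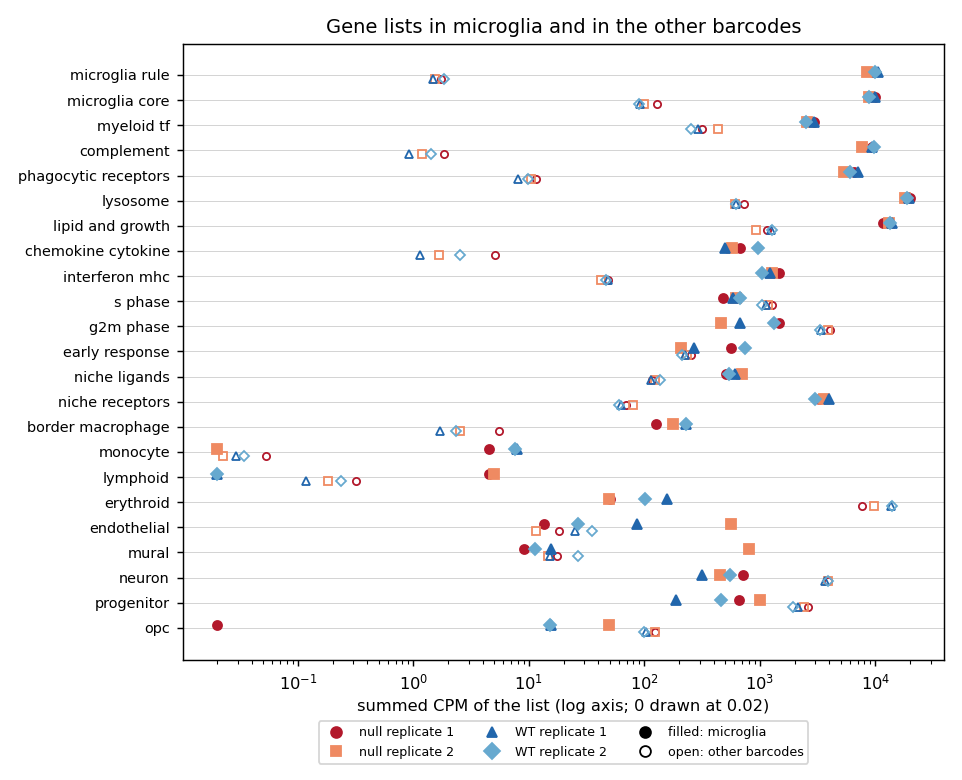
Summed CPM (log axis) of 23 gene lists in the microglia (filled) and in the other passing barcodes (open), with 1 symbol per library. Myeloid, lysosomal and complement lists lie to the right in microglia, and erythroid, neuron, progenitor and G2M lists to the left. The mural list stands out in null replicate 2 alone and the endothelial list most there, where 1 barcode carried nearly all of these UMIs. In WT replicate 1 the endothelial list was at 86.2 CPM in the microglia against 24.8 CPM in the other barcodes.

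Genes of the G2 and M phases were detected in the microglia at lower levels than in the other barcodes. All 12 genes of a list of these phases (G2M) were lower in all 4 libraries, with a median ratio of 0.252. Of 10 S phase genes only 5 were lower in all 4 libraries and 0 were higher, with a median ratio of 0.560, and Mcm3, a replication helicase gene, was at 72.6, 79.3, 118 and 98.0 CPM against 78.2 to 115 CPM elsewhere. Top2a, a mitotic topoisomerase, was at 254, 149, 110 and 237 CPM, against 722 to 942 CPM elsewhere. Mki67, a proliferation marker, was at 245, 19.8, 23.5 and 143 CPM, found in 21 of the 93 barcodes. After thinning to 2000 UMIs, 11 of 25 and 6 of 15 null microglia (44.0% and 40.0%) held 2 or more UMIs of the G2M list, as did 8 of 21 and 9 of 32 in WT (38.1% and 28.1%). In this single random draw the genotypes did not overlap, but the two-sided exact permutation p was 0.333, the smallest possible. They did overlap at 1 or more UMIs, with 64.0% and 73.3% in null and 71.4% and 56.3% in WT (exact permutation p = 0.667), and at 10 or more UMIs, with 4 of 25 and 0 of 15 in null and 1 of 21 and 3 of 32 in WT (exact permutation p = 1). Without thinning the shares were 68.0% and 93.3% in null and 61.9% and 43.8% in WT. The other barcodes, thinned alike, were at 50.4% and 50.2% in null and 44.7% and 43.0% in WT. A share of barcodes with UMIs of the G2M list was not read as a share of dividing cells. The list summed to 17.6 to 58.4% of its level in droplets under 100 UMIs. The neuron list was at 10.3 to 20.7%, the progenitor list at 10.1 to 50.7% and the erythroid genes at 0.688 to 2.18%. The part of free RNA in the G2M UMIs was not tested.

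A range of the microglia held almost no Malat1, a nuclear noncoding RNA. Of the 93, 29 (31.2%) held under 1 Malat1 UMI per 1000 UMIs, a limit set after the values were seen, and 17 of the 93 lay between 0.5 and 2 per 1000. The 29 were spread over the libraries, 6 of 25, 4 of 15, 8 of 21 and 11 of 32. In the other barcodes, 4.38 to 9.77% fell under the same limit. The Malat1-poor microglia were shallow, with a median of 2844 UMIs against 10503.5 in the rest. Shares were therefore also taken within ranges of depth. From 2000 to under 4000 UMIs, 24 of 36 microglia were Malat1-poor against 1102 of 3674 other barcodes, and from 4000 to under 8000 UMIs 5 of 15 against 310 of 9919 (3.13%). By library, the lower range held 2 of 7 and 3 of 5 in null and 8 of 11 and 11 of 13 in WT. The middle range held 4 of 5 and 1 of 1 in null and 0 of 4 and 0 of 5 in WT, so that all 5 Malat1-poor microglia of that depth came from null libraries. At 8000 UMIs or more it was 0 of 42, where the exact 95% interval reaches 8.41%, against 123 of 7546 other barcodes (1.63%), of which 97 held over 10 UMIs of the erythroid genes per 1000 UMIs.

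**Figure D3:**
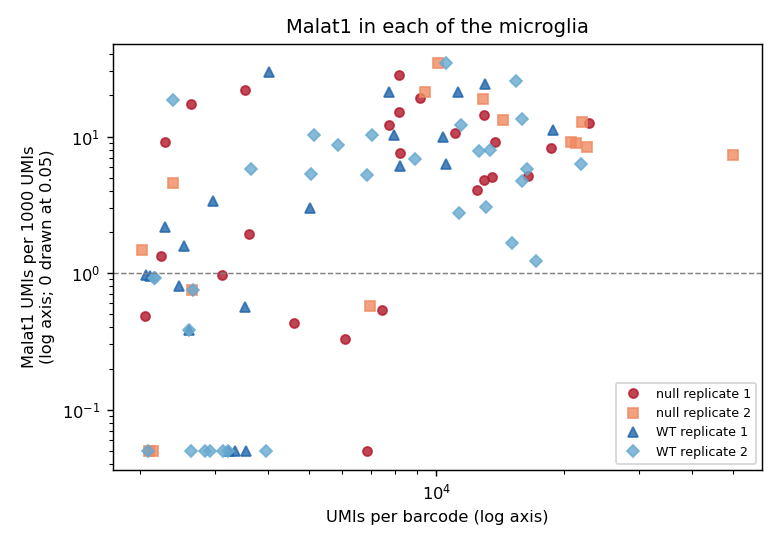
Malat1 UMIs per 1000 UMIs (log axis) against UMIs per barcode (log axis) for each of the 93 microglia, with symbols by library and the limit of 1 per 1000 as a dashed line. The 29 barcodes under the line all hold fewer than 8000 UMIs and come from all 4 libraries.

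Further genes are given for the same classes as a description only, because the classes were drawn from the same counts and these genes were chosen after their values were seen. None of the 29 Malat1-poor microglia held an Xist UMI, against 14 of the other 64. Within the null libraries alone this was 0 of 6 and 0 of 4 against 6 of 19 and 8 of 11. Gm26917, a noncoding RNA gene, had 0 UMIs in the Malat1-poor and 400 in the rest, and Zeb2, a transcription factor gene, averaged 102 against 530 CPM. Csf1r averaged 332 against 1181 CPM and Cx3cr1 612 against 1659 CPM over the 4 libraries, and both were lower in the Malat1-poor of every library. P2ry12 was also lower in all 4, at 425 against 925 CPM. Of the C1q chains, C1qb was at 2779 against 3553 CPM and lower in 2 of 4 libraries, and C1qa (2202 against 2612 CPM) and C1qc (2004 against 2470 CPM) were lower in 3 of 4. Tyrobp was at 2720 against 2675 CPM. AY036118, a noncoding RNA gene, went the other way, at 2289 against 750.2 CPM and higher in the Malat1-poor of all 4 libraries. Of 278 genes at 500 CPM or more, 33 were lower and 116 higher in the Malat1-poor of all 4 libraries, and 57 of 75 ribosomal protein genes were among the higher ones. Depth differed between the classes, and its part in these values was not tested.

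The share of microglia was lower in both null libraries than in both WT libraries. It was 0.346% (25 of 7217, exact Clopper-Pearson 95% interval 0.224 to 0.511%) and 0.337% (15 of 4456, 0.189 to 0.555%) in null, and 0.418% (21 of 5026, 0.259 to 0.638%) and 0.706% (32 of 4533, 0.483 to 0.995%) in WT. The mean difference, null minus WT, was -0.220 percentage points, with a two-sided exact permutation p of 0.333, the smallest this design allows. The intervals of all 4 libraries overlapped, the difference was -0.0763 points without WT replicate 2, and among barcodes of 4000 UMIs or more it was -0.0994 points (exact permutation p = 1). The mitochondrial limit took out 4 and 7 barcodes with the marker UMIs in null and 2 and 1 in WT, and its part in the share was not tested. Intervals cover counting error only, and the yield of a dissociation and its number of embryos cannot be told apart from the number of microglia in the tissue.

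**Figure D4:**
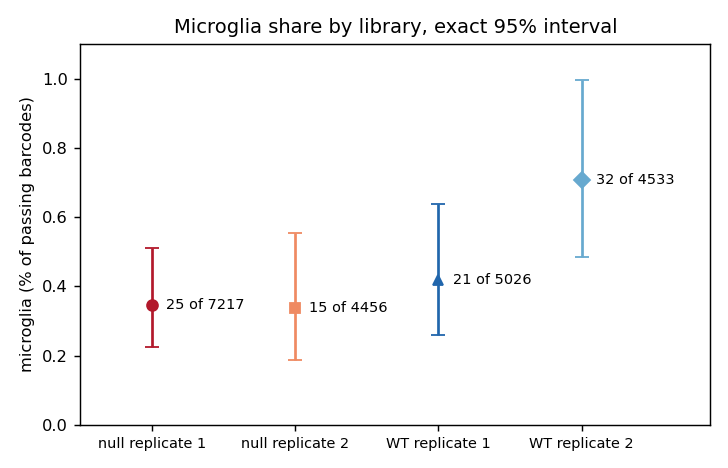
Microglia as a percentage of passing barcodes in each library, with exact Clopper-Pearson 95% intervals and the counts beside each point. The interval of WT replicate 1 overlaps those of both null libraries, and WT replicate 2 is the highest at 0.706%.

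Few genes differed between null and WT microglia. Counts were summed over the microglia of each library and compared with edgeR's quasi-likelihood test over 3223 genes, with Benjamini-Hochberg adjustment. Only Xist was called higher in null (0.031% of the genes tested) and only Gm26917 lower (0.031%), at an adjusted p under 0.05. Before adjustment, 209 genes (6.48%) had a p under 0.05. With 2 libraries a genotype, 609 genes (18.9%) had both null libraries above both WT libraries and 576 (17.9%) had both below. In either direction, 36.8% of the genes tested did not overlap between the genotypes.

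Xist held 111 and 193 UMIs in null microglia, 504 and 957 CPM, and 0 UMIs in both WT libraries (edgeR adjusted p = 1.13e-05). Microglia with a UMI of any of 4 Y-linked genes numbered 14 of 25 and 1 of 15 in null and 8 of 21 and 16 of 32 in WT. Xist UMIs were thus found in microglia of both null libraries and of neither WT library, and the other barcodes had the same order.

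GENCODE M21 lists Gm26917 as an intergenic noncoding RNA gene on the plus strand of chromosome 17 (GRCm38, 39843013 to 39846341). It ends 616 bases before Gm42418 on the same strand. Which RNA the UMIs of Gm26917 stem from was not tested. Its levels were 168 and 59.5 CPM in null (37 and 12 UMIs) and 470 and 1097 CPM in WT (60 and 291 UMIs). Both null libraries lay below both WT libraries, and null over WT came to -2.79 ± 0.43 on the log2 scale (SE, edgeR adjusted p = 0.0157). Single barcodes weighed heavily, since 36 of the 60 UMIs in WT replicate 1 and 148 of the 291 in WT replicate 2 came from 1 barcode each, and 38 of the 93 microglia held any. In the other barcodes Gm26917 went the other way, at 62.6 and 80.3 CPM (null) against 51.5 and 53.3 CPM (WT). With the tenth of barcodes richest in neuron and progenitor UMIs left out of each library, the call was lost at a log2 fold change of -2.40 (edgeR adjusted p = 0.320), and with library totals in place of TMM factors at -2.76 (0.0825).

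Gm42418, its neighbour, did not pass the test (-1.17 ± 0.25 on the log2 scale, SE, edgeR adjusted p = 0.126; 0.0347 with each barcode thinned to 2000 UMIs), at 8103 and 15044 CPM (null) against 29256 and 22483 CPM (WT). The other barcodes had a like order, 10018 and 17584 CPM (null) against 24877 and 24699 CPM (WT), so this order was not particular to microglia. Gm42418 overlaps the minus-strand gene AY036118 over 923 bases, and whether the counting used strand is not given in the sources used here.

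**Figure D5:**
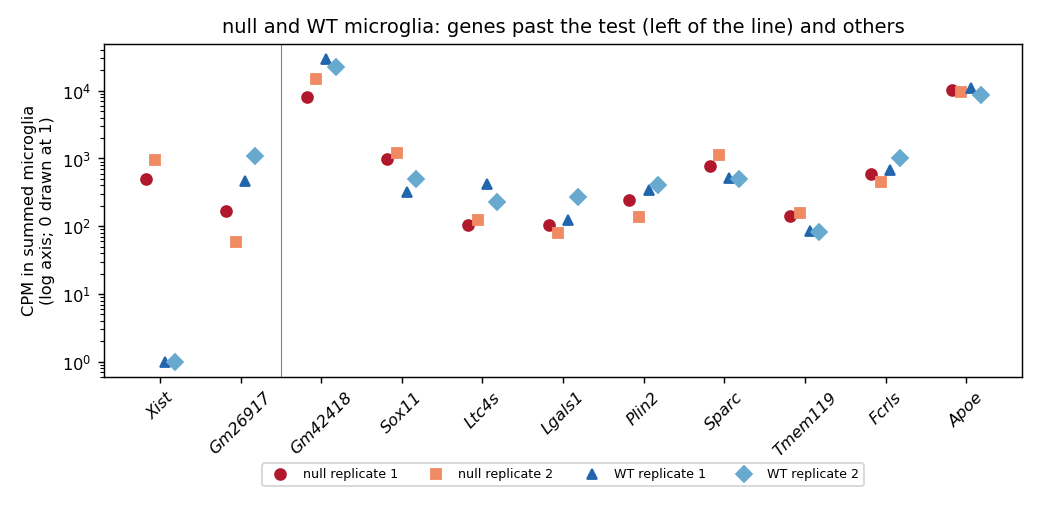
CPM (log axis) in the summed microglia of each library for Xist and Gm26917, left of the line, which passed edgeR's test, and for 9 genes that did not. Both null libraries lie below both WT libraries for Gm26917, and Apoe lies between 8776 and 11011 CPM in all 4 libraries.

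No gene of the microglial lists passed the test. None of the 14 core genes was called, with a median log2 fold change of 0.19 (0.00 over all genes tested). Of the 14, 3 were under an unadjusted p of 0.05, against 6.48% of all genes tested. Sparc, a matrix protein gene of microglia, stood at 785 and 1125 CPM (null) against 517 and 490 CPM (WT) (null over WT 0.92 ± 0.26, SE, edgeR adjusted p = 0.498), and 92 of its 227 UMIs in null replicate 2 came from 1 barcode. Tmem119 had a log2 fold change of 0.83 ± 0.36 and Fcrls one of -0.69 ± 0.27 (SE, edgeR adjusted p = 0.708 and 0.623). In each of these genes the genotypes did not overlap, as in 36.8% of all genes tested. The 18 lysosomal genes had a median of -0.05, with 0 called and 0 under an unadjusted p of 0.05. For Apoe the log2 fold change was -0.01 ± 0.19 (SE). A gene that was not called is not thereby shown to be equal.

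Lipid and growth genes had the lowest median among the lists of microglial function, -0.67 over 8 tested genes, with 0 called. Of the 8, 4 were under an unadjusted p of 0.05, against 6.48% of all genes tested. Lgals1, which encodes a galectin, stood at 104 and 79.3 CPM (null) against 125 and 268 CPM (WT) (null over WT -1.16 ± 0.38, SE, edgeR adjusted p = 0.591). Plin2, a lipid droplet protein gene, stood at 245 and 139 CPM (null) against 345 and 403 CPM (WT) (-0.96 ± 0.31, SE, edgeR adjusted p = 0.582). Both null libraries lay below both WT libraries in each of these genes, as in 17.9% of all genes tested. In WT replicate 2, 1 barcode held 27 of the 71 Lgals1 UMIs and 1 held 31 of the 107 Plin2 UMIs. Spp1, whose UMIs sat in a few barcodes, had a log2 fold change of 0.12 ± 0.89 (SE). With the Malat1-poor barcodes left out, among them the null barcode with 199 of the Spp1 UMIs, it was called lower in null, at -5.86 (edgeR adjusted p = 0.00384).

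No neuron or progenitor gene was called. The neuron list had a median log2 fold change of 0.35 over 4 tested genes, with 1 under an unadjusted p of 0.05. The progenitor list had a median log2 fold change of 1.28 over 5 tested genes, with 0 called and 3 under an unadjusted p of 0.05. Over all genes tested, 6.48% were under that p. Fabp7, a radial glial gene, stood at 68.1 and 273 CPM (null) against 39.2 and 33.9 CPM (WT) (2.22 ± 0.59, SE, edgeR adjusted p = 0.421). In null replicate 2, 29 of its 55 UMIs came from 1 barcode, and the other barcodes held it at 459 and 412 CPM (null) against 449 and 473 CPM (WT). Sox11, a neuronal transcription factor gene outside the lists and chosen after its values were seen, stood at 989 and 1209 CPM (null) against 321 and 505 CPM (WT) (1.38 ± 0.27, SE, edgeR adjusted p = 0.0911). Of its UMIs in null replicate 2, 113 of 244 came from 1 barcode, and no fit was chosen to leave out that barcode. Sox11 passed the test without the barcode largest in total UMIs (log2 fold change 1.51, edgeR adjusted p = 0.0165). It also passed after thinning (1.17, edgeR adjusted p = 0.0310). With the tenth of barcodes richest in neuron and progenitor UMIs left out of each library it was not called, at a log2 fold change of 0.87 (edgeR adjusted p = 0.687). The other barcodes held Sox11 at 5706 and 6817 CPM (null) against 4723 and 4834 CPM (WT).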

How the data were processed

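Droplet single-cell RNA libraries were made with 10X Genomics chemistry. The authors deposited raw UMI counts per gene and barcode, made with Cell Ranger 5.0.1 on GRCm38 per the labels, while the file headers name Cell Ranger 4. Each of the 4 matrices lists 32285 features and barcodes of any depth. Cells were taken again from these matrices by the rule given above, and no doublet caller was run.

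Counts were summed per library over microglia, other passing barcodes and droplets under 100 UMIs, and scaled to CPM. Null and WT sums were compared with edgeR 4.0.16 (TMM factors, filterByExpr, quasi-likelihood test, two-sided, no covariate; SE as the log2 fold change over the square root of the F statistic), with DESeq2 1.42.0 as an alternative. The fit was also run on negative binomial counts simulated with 1 common dispersion. Of 3223 genes, 200 at 100 CPM or more were changed 4-fold, and 98.5% of these were called, with 13 false calls. Genes carried by single barcodes were not simulated, so the run does not cover them. Nor does it cover a case in which few genes differ, since adjustment is less strict with 200 genes changed at once. Shares carry exact Clopper-Pearson 95% intervals (counting error only) and exact permutation tests over libraries. Thinning drew 2000 UMIs per barcode without replacement, in a single draw, and the spread between draws was not measured.

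Named genes were the 5 genes of the rule, list genes at 100 CPM or more or past the test, the 25 genes with the largest ratio to other barcodes (at least 200 CPM and 3 UMIs per library), and genes past the test at 50 CPM or more; others are named after their values were seen. The members and the 24 lists were chosen with earlier results of these data known. Coordinates are from GENCODE M21 (GRCm38), and the promoters from RefSeq (GRCm38.p6). Protein sequences were not used here. Some genes are not reported here.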

Additional observations from a re-analysis of the deposited data

Results flagged for a closer look

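Microglial UMIs were also found in barcodes outside the limits. Of 8119 barcodes with 1000 to under 2000 UMIs and at most 10% mitochondrial UMIs, 29 met the marker limits, 8 and 5 in null and 5 and 11 in WT. They held 6.04 UMIs of the 5 rule genes per 1000 UMIs, and 10 of the 29 were Malat1-poor. A further 14 barcodes with at least 2000 UMIs met the marker limits but lay over the mitochondrial limit, at 11.8 to 37.8% mitochondrial UMIs, 4 and 7 in null and 2 and 1 in WT. Of these, 1 was Malat1-poor.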

How the results depend on the processing

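No paired analysis was possible because the labels give no replicate number to any library, and those used here follow the order of accession and only name the libraries. Against 2 genes called between null and WT microglia, 1 was called with library totals alone and 1 with the barcodes richest in neural UMIs left out (Xist in both). The count was 2 with RLE size factors, without the expression filter, with DESeq2 and without barcodes holding 2 or more border macrophage UMIs, and 3 with at least 10 marker UMIs (Mir100hg added). Alternatives chosen after seeing the data gave 3 without Malat1-poor barcodes (Spp1 added, log2 fold change -5.86), 5 without the largest barcode (Mir100hg and Sox11 among those added) and 4 with each barcode thinned to 2000 UMIs (Sox11 and Gm42418 added). Leaving out 1 library gave 11 to 85 calls (85 without null replicate 1, 11 without null replicate 2, 51 without WT replicate 1 and 47 without WT replicate 2), where the lone library is assumed to vary like the other genotype. Of the 112 genes called in any of these 4 fits, 3 were called in all, Xist, Gm26917 and Gm42418. Xist passed in 14 of 14 alternatives and Gm26917 in 12 of 14, with a log2 fold change from -4.11 to -2.10 and an adjusted p up to 0.320.

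The 3 share differences given here kept their sign under every alternative run for them. The thinned shares rest on a single random draw, and no further draw was among these alternatives. The microglia share difference ranged from -0.364 to -0.0763 points when 1 library was left out, and was -0.0994 (exact permutation p = 1) at 4000 UMIs or more. The G2M difference of 8.89 points ranged from 3.9 to 13.9 when 1 library was left out, and was 27.8 without thinning, 4.83 at 1 or more UMIs and 7.82 at 3 or more. The border macrophage difference of -13.4 points ranged from -14.3 to -12.5 when 1 library was left out, and was -2.16 without thinning (exact permutation p = 0.667), -7.53 at 1 or more UMIs and -1.56 at 3 or more. The median core gene ratio ranged from 2111 to 2512, and the median level of neural and globin genes relative to droplets from 0.129 to 0.172 around 0.155. The latter pools neural and globin lists that stood at unlike levels, as given above. Depth limits low genes, as 1 UMI comes to 3.77 CPM in WT replicate 2 and 7.84 CPM in WT replicate 1.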
